A study of Mus musculus with 5 samples.

Results

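The 50 genes described here encode chemokines and the receptors that bind them, out of 19938 genes with a probe set of their own on the array. They were taken by symbol, as every gene whose name begins with Ccl, Cxcl, Ccr or Cxcr and a digit, or with Cx3c, and whose probe set the platform annotation assigns to exactly 1 gene. Of the 50, 33 encode ligands (19 of the CC family, 13 of the CXC family and Cx3cl1) and 17 encode receptors. Where a gene had several probe sets, the one with the highest mean stands for it, which concerned Ccl19 and Ccl25.

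Expression was measured in whole liver of 5 male wildtype C57BL/6N mice aged 5 to 6 months, 1 Affymetrix array per mouse. All 5 mice had received streptozotocin, which destroys insulin-producing beta cells and here served to induce diabetes, at 65 mg/kg on 5 consecutive days at 10 to 16 weeks of age. All 5 then received bezafibrate, a lipid-lowering fibrate that activates PPAR nuclear receptors, mixed into standard chow for 8 weeks from 2 weeks after the injections. The labels name 0.25% and 0.5% bezafibrate by weight without assigning either to a mouse, so the part of dose in any spread between the mice cannot be told apart from the rest. With a single group there was no comparison between treatments: what can be given is how high each gene lay and how far the 5 livers differed, numbered 1 to 5 as in the labels.

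Chemokines are small secreted proteins that direct the movement of leukocytes along a gradient. They are grouped by the spacing of the first conserved cysteines into CC, CXC and CX3C families, and they act through receptors of the G protein-coupled class on the responding cell. In liver they are made by Kupffer cells, endothelium, stellate cells and hepatocytes, while most of their receptors are carried by blood leukocytes, so that receptor transcripts in a piece of liver come largely from resident and passing immune cells.

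Values are log2 signals after RMA processing by the authors, where a difference of 1 is a doubling. Presence was judged on each array against 1035 probe sets of olfactory receptor genes, a family of the nasal epithelium, as background. Their 95th percentile on that array is called the floor. By construction 5% of the olfactory receptor probe sets exceed it, so a gene just above the floor has a weak claim to be detected. The floor lay at 5.70, 5.74, 5.89, 6.13 and 5.80 in mice 1 to 5. The array of mouse 4 stood apart: 76.7% of the olfactory receptor probe sets were brightest there, and 36.8% of all 13019 genes tested for spread were lowest there. Pairs of arrays correlated with Pearson's r between 0.971 and 0.993 across probe sets, which are not independent replicates. All 13 measured hepatocyte markers, albumin among them, exceeded the floor in all mice.

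Of the 50 genes, 23 exceeded the floor on all 5 arrays, 5 on some and 22 on none. That is 46.0% on all arrays, against 58.7% of all 19938 genes, and 44.0% on none, against 30.5% of all genes. Among ligands, 19 of 33 exceeded the floor in every mouse (9 of 19 CC, 9 of 13 CXC, and Cx3cl1). Among receptors, 4 of 17 did, and 12 of 17 exceeded it in no mouse. In whole tissue, fewer cells of a type and less RNA per cell cannot be told apart, and a value under the floor is not evidence that a transcript is absent. Without mouse 4, 25 genes exceeded the floor on all remaining arrays, Ccl24 and Ccr10 being added, and 63.7% of all genes did. With the floor at the 99th percentile, 10 of the 50 did, against 43.1% of all genes.

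**Figure D1:**
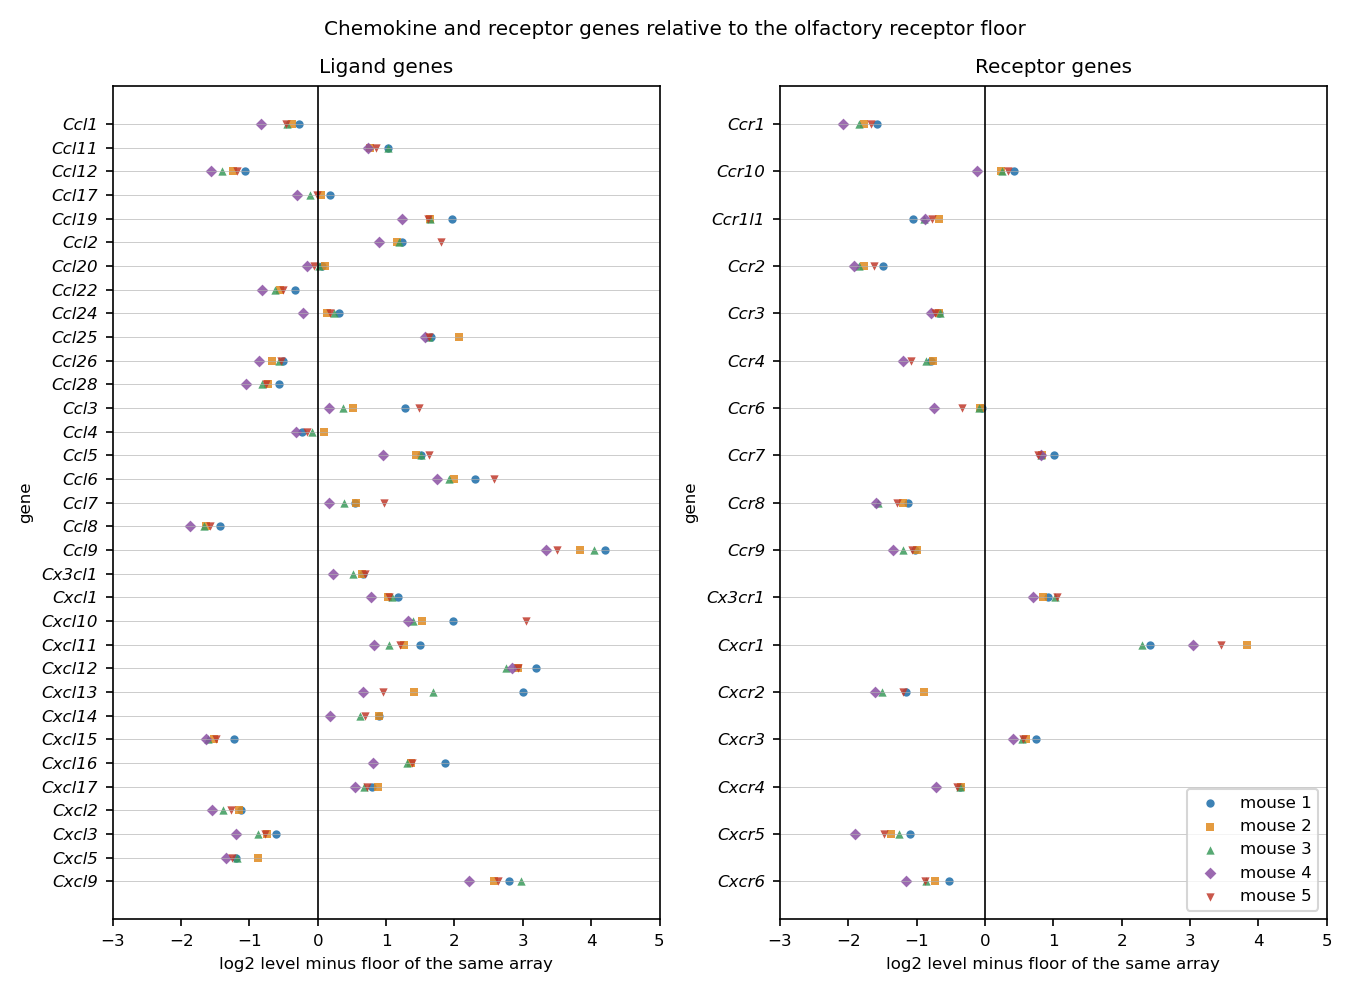
Log2 level minus the floor of the same array for the 33 ligand genes (left) and 17 receptor genes (right), 1 point per mouse; the vertical line at 0 is the floor. Points of 19 ligand and 4 receptor genes lie to the right of the line in all 5 mice, and distances from the line depend on the probes of each gene, so rows are not to be ranked against each other.

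Cxcl13, a CXC ligand gene, had the widest spread of the 25 tested genes, while the median SD of tested CXC ligands (0.146) lay below that of CC ligands (0.202). Cxcl13, which encodes the chemokine that draws B cells into lymphoid follicles through CXCR5, had levels of 8.70, 7.15, 7.57, 6.79 and 6.75 in mice 1 to 5, all above the floor. Mouse 1 stood highest and mice 4 and 5 lowest, a 3.86-fold span around a mean of 7.39 ± 0.80 (SD, n = 5). The variance between mice was compared with the variance expected at the same level (limma, robust fit with a trend on the mean, Benjamini-Hochberg adjustment over all probe sets tested). Cxcl13 was the 1 of 25 tested genes to pass, with an adjusted p of 0.0492, against 0.284% of all genes tested. This call was marginal: it was lost when mouse 1 was left out (SD 0.38, limma adjusted p = 0.417). It was also lost without mouse 2, 3 or 4 (limma adjusted p = 0.0836, 0.056 and 0.166), where the SD was larger (0.91, 0.92 and 0.84). Over all genes tested, 37 of 13019 passed with all 5 mice and 49 of 12870 without mouse 1. Fewer passed without mouse 2, 3 or 4: 16 of 12927, 16 of 13011 and 0 of 13289. Over 16 alternatives the limma adjusted p of Cxcl13 lay between 0.00428 and 0.417, and 5 of the 16 were under the threshold.

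Beside the high Cxcl13 value, 14 of 16 Kupffer cell and macrophage markers were highest in mouse 1, against 24.1% of all genes tested. Their mean deviation in mouse 1 was 0.293 from the 5-mouse mean. Of the 16, 15 exceeded the floor in all mice, Clec4f, Vsig4 and Timd4 among them. The mean level of that list lay between 8.43 and 8.89 over the 5 mice. B and plasma cell markers deviated by 0.005 in mouse 1 (5 tested genes). Of 11 measured, 3 exceeded the floor in all mice (Cd79b, Mzb1 and Sdc1), and 6 lay under it in all mice, Cd79a and Ms4a1 among them. The mean level of the B and plasma cell list lay between 5.75 and 5.98. Stellate cell and fibroblast markers, which begin with Lrat, Reln and Des, deviated by 0.141 in mouse 1, with 10 of 16 highest there. The mean level of that list lay between 8.04 and 8.24. Sinusoidal endothelial markers deviated by 0.068 in mouse 1, with 8 of 14 highest there, and hepatocyte markers by 0.02, with 1 of 13. The part of these cells in the Cxcl13 values was not tested.

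Cxcl9, Cxcl10 and Cxcl11 are the 3 interferon-inducible ligand genes of CXCR3, a receptor of activated T cells and NK cells. They did not share 1 pattern over the mice. Only transcripts were measured, so these values do not show whether each gene yields a working ligand in this strain. Cxcl10 had levels of 7.67, 7.27, 7.28, 7.44 and 8.84 in mice 1 to 5, so that mouse 5 stood 1.17 above the next mouse. Cxcl9 had 8.50, 8.32, 8.86, 8.34 and 8.44, with mouse 3 highest. Cxcl11 had 7.19, 7.00, 6.92, 6.95 and 7.00, with mouse 1 highest. The SDs were 0.66 for Cxcl10 (2.97-fold span), 0.22 for Cxcl9 and 0.10 for Cxcl11. Cxcl10 did not pass (limma adjusted p = 0.0848, unadjusted p = 0.000488). Without mouse 5 its SD was 0.19 (limma adjusted p = 0.994), and without mouse 1 it passed (SD 0.76, limma adjusted p = 0.0439). Cxcl9 and Cxcl11 had limma adjusted p values of 0.951 and 0.992.

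The 250 bases before the transcription start of Cxcl10 and Cxcl9 are shown because these related genes differed in which mouse was highest, with that of Cxcl13 as the gene whose variance passed. Sequences are from RefSeq, build GRCm38.p6, 5′ to 3′ on the strand of the gene. Capitals mark matches on either strand to 1 form of the NF-kB motif (GGGA, any 2 bases, T, any base, CC). They also mark a relaxed interferon-stimulated response element (TTTC, any 2 bases, TTTC). Other forms of these motifs were not searched, so a near match is not marked. A relaxed STAT motif (TTC, any 3 bases, GAA) was searched too, and these motifs may overlap. The positions are chr5:92348890-92349139 (minus strand) for Cxcl10, chr5:92328080-92328329 (minus strand) for Cxcl9 and chr5:95956689-95956938 (plus strand) for Cxcl13.
Cxcl10: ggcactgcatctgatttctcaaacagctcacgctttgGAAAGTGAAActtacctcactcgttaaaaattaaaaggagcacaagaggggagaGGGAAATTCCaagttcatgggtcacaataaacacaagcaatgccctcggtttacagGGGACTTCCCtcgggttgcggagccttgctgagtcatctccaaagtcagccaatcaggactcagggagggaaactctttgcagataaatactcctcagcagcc
Cxcl9: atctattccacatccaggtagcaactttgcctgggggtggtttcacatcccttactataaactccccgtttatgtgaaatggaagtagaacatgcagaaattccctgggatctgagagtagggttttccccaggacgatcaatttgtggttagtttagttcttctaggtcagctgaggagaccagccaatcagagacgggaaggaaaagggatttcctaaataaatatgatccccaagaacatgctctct
Cxcl13: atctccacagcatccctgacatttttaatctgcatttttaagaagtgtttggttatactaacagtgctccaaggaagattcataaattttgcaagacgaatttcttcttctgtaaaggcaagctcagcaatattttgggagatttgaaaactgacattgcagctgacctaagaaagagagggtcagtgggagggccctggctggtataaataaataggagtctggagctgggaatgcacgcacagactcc
In this window Cxcl10 held 2 matches to the NF-kB letters and 1 to the interferon response letters, while Cxcl9 and Cxcl13 held 0 of any of the 3. A match is a run of letters and not a site shown to be used, and no match speaks only of these letters in this window.

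**Figure D2:**
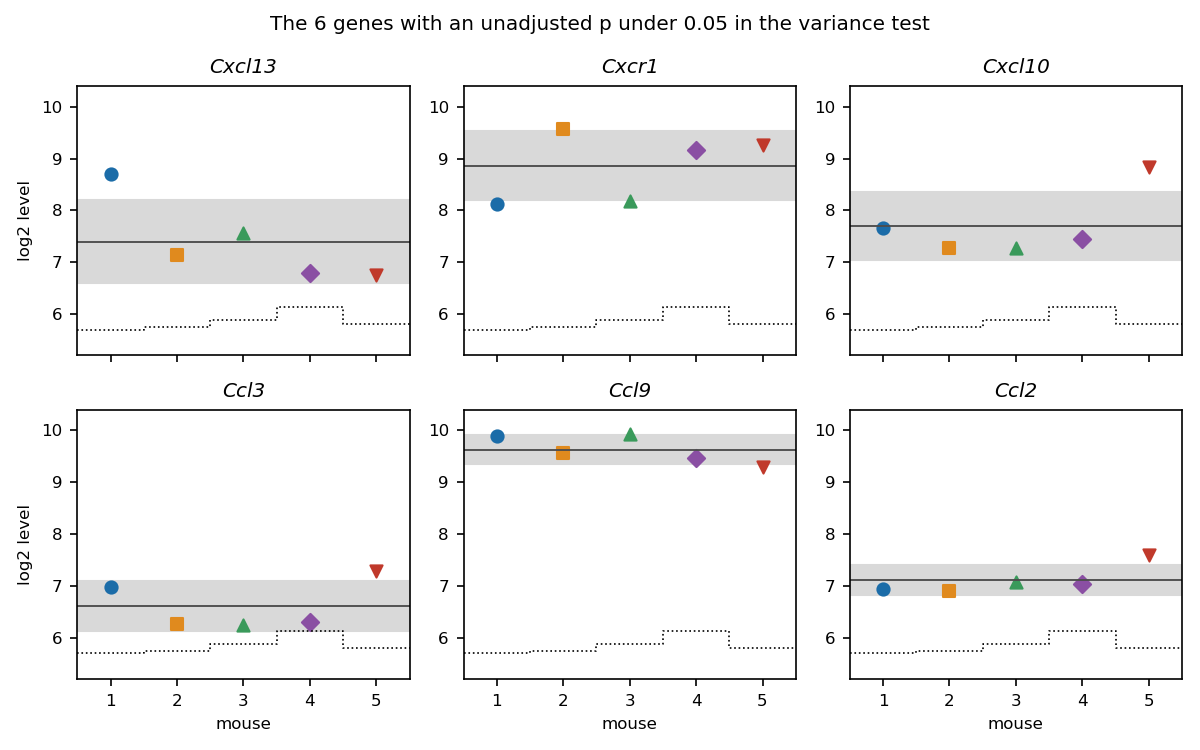
Log2 level per mouse (points) of the 6 genes whose variance had an unadjusted p under 0.05, with the mean (line), mean ± 1 SD (grey band) and the floor of each array (dotted). Mouse 1 is highest for Cxcl13, mouse 5 for Cxcl10, Ccl3 and Ccl2, mouse 2 for Cxcr1 and mouse 3 for Ccl9.

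Among the neutrophil-attracting CXC ligand genes of the 50, Cxcl1 exceeded the floor on all arrays and Cxcl2, Cxcl3 and Cxcl5 on none. Ppbp, which encodes a further CXC ligand of CXCR2 stored in platelets and is not named by the Cxcl pattern, also exceeded it on all arrays (6.84 to 7.63). Cxcl1 had levels of 6.87, 6.76, 6.97, 6.90 and 6.84 in mice 1 to 5, a narrow range with an SD of 0.08. Cxcl2, Cxcl3 and Cxcl5, which encode ligands of the same receptor, CXCR2, had means of 4.55, 5.01 and 4.68 and exceeded the floor in 0 of 5 mice. Cxcl15, a chemokine gene of lung, had a mean of 4.35, also under the floor. Cxcl3, Cxcl15, Cxcl1 and Cxcl2 are neighbours on the chromosome in that order in the RefSeq gene table. The upstream windows of Cxcl1 (chr5:90890995-90891244, plus strand) and Cxcl2 (chr5:90903649-90903898, plus strand) are printed because they carry the same NF-kB letters while 1 of the 2 genes exceeded the floor.
Cxcl1: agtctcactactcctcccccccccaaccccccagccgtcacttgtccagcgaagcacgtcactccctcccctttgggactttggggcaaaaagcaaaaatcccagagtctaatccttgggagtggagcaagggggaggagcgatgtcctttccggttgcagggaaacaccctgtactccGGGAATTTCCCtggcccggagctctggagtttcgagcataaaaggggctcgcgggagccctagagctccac
Cxcl2: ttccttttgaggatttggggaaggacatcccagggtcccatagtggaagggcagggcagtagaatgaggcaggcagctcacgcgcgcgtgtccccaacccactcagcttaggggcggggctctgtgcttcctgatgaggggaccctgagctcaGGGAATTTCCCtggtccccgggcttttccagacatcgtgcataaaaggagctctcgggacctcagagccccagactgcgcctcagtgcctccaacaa
Each held 2 overlapping matches to the NF-kB letters, 1 per strand, in a run of 11 bases, and 0 to the other 2 motifs. Over 38 upstream windows of 36 of the 50 genes, 18.4% held the NF-kB letters (Ccl1, Ccr3, Ccr6, Cxcl1, Cxcl10, Cxcl2 and Cxcl3), against 3.33% of all 32851 windows. The interferon response letters stood in 7.89% (Ccl19, Cxcl10 and Cxcl14), against 2.98%, and the STAT letters in 10.5%, against 7.02%. Of the 7 genes with the NF-kB letters, Cxcl1 and Cxcl10 exceeded the floor on all arrays and the other 5 on none. Of all 38 windows, 16 belonged to genes above the floor on all arrays. The letters were chosen after the values were seen, so the split is a description of few genes.

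Among homeostatic CXC ligands, Cxcl12, which encodes the ligand of CXCR4 that retains stem cells and lymphocytes in their niches, had levels of 8.88, 8.66, 8.63, 8.97 and 8.72 in mice 1 to 5. Each value exceeded all olfactory receptor probe sets of its array, and the SD was 0.15. Cxcl16, whose membrane-bound product binds CXCR6 on NKT and T cells, had 7.56, 7.11, 7.20, 6.94 and 7.18, with mouse 1 highest and an SD of 0.23. Cxcl14 had 6.59, 6.64, 6.50, 6.30 and 6.48, and came within 0.18 of the floor in mouse 4. Cxcl17, a chemokine gene of mucosal tissues, had 6.50, 6.62, 6.56, 6.68 and 6.52. None of these 4 passed the variance test (limma adjusted p between 0.968 and 0.994).

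Several CC ligands that draw monocytes were highest in mouse 5. Ccl2, whose product is the main attractant of CCR2-bearing monocytes, had levels of 6.93, 6.90, 7.08, 7.03 and 7.60 in mice 1 to 5. Ccl7, which encodes another ligand of CCR2, had 6.25, 6.30, 6.27, 6.30 and 6.76. In both genes 4 mice lay close together and mouse 5 stood above them, by 0.52 for Ccl2 and 0.465 for Ccl7. Ccl6, a myeloid chemokine gene, had 7.99, 7.73, 7.81, 7.88 and 8.38. The SDs were 0.28, 0.22 and 0.25, and 0.08, 0.02 and 0.11 without mouse 5. None passed (limma adjusted p = 0.756, 0.968 and 0.825).

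Ccl3, which encodes macrophage inflammatory protein 1 alpha, a ligand of CCR1, had levels of 6.97, 6.26, 6.25, 6.30 and 7.28 in mice 1 to 5. Mice 1 and 5 were high and the other 3 lay within 0.05 of each other, at 0.17 to 0.52 above their floors. The span was 2.04-fold, with an SD of 0.48 and a limma adjusted p of 0.224 (unadjusted p = 0.0032). Ccl4, its neighbour and close relative, had 5.46, 5.82, 5.81, 5.80 and 5.65 and exceeded the floor in mouse 2 alone, by 0.08. Mice 1 and 5, the high mice of Ccl3, were the lowest for Ccl4, whose values lay around the floor.

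Ccl9, which encodes a myeloid chemokine of rodents, had levels of 9.89, 9.57, 9.93, 9.46 and 9.30 in mice 1 to 5 and exceeded all olfactory receptor probe sets in each. Mice 1 and 3 were highest and mouse 5, high for its neighbours Ccl6 and Ccl3, was lowest. Its SD was 0.27 (limma adjusted p = 0.584, unadjusted p = 0.0225). Ccl5, which encodes RANTES, a product of T cells, NK cells and platelets, had 7.20, 7.17, 7.39, 7.08 and 7.42, and its SD was 0.15. In the RefSeq gene table Ccl5, Ccl9, Ccl6, Ccl3 and Ccl4 stand in a row: 4 of these 5 exceeded the floor in all mice. In the row Ccl2, Ccl7, Ccl11, Ccl12, Ccl8 and Ccl1, the first 3 did and the last 3 did in no mouse.

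None of the remaining CC ligand genes above the floor passed the variance test (limma adjusted p = 0.992 for Ccl11, Ccl19 and Ccl25). Ccl11, which encodes eotaxin, an attractant of eosinophils, had levels of 6.72, 6.51, 6.91, 6.86 and 6.65 in mice 1 to 5, and an SD of 0.16. Ccl19, whose product guides dendritic cells and T cells through CCR7, had 7.65, 7.38, 7.52, 7.36 and 7.41, and an SD of 0.12. All 5 of its probe sets were highest in mouse 1, and 2 of them held the same values. Ccl19 has near-identical copies in the mouse genome, so signal cannot be assigned to 1 copy. Ccl25, a chemokine gene of thymus and gut and the ligand gene of CCR9, had 7.35, 7.80, 7.52, 7.69 and 7.42, with mouse 2 highest and an SD of 0.19. Its second probe set was also highest in mouse 2 (7.56) but lowest in mouse 4 (7.01) where the first had its second-highest value.

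A further 7 probe sets were assigned to several genes, so they name no gene here. The 4 shared by the Ccl21 copies held 1 set of values, 7.87, 7.46, 7.94, 7.60 and 7.69 in mice 1 to 5. The 3 shared by the Ccl27 copies lay between 8.24 and 9.02. All 7 exceeded the floor in all mice, with SDs between 0.116 and 0.194. Ccl21 encodes, with Ccl19, the ligands of CCR7.

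At the floor itself stood Ccl24 (above it in 4 mice, 5.87 to 6.12), Ccl20 (3 mice, 5.74 to 5.96), Ccl17 (2 mice, 5.77 to 5.88) and Ccl4, and the receptor gene Ccr10 (4 mice, 5.98 to 6.14). None of these 5 exceeded it by more than 0.42. The 6 CC ligands under the floor in all mice were Ccl1, Ccl8, Ccl12, Ccl22, Ccl26 and Ccl28, with means from 4.21 (Ccl8) to 5.37 (Ccl1). Their values were higher than 26.3% to 91.6% of the olfactory receptor probe sets of the same array, the range of the background.

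Cx3cl1 encodes fractalkine, a ligand tethered to the membrane, and Cx3cr1 its receptor on monocytes and resident macrophages. Cx3cl1 had levels of 6.35, 6.39, 6.40, 6.36 and 6.49 in mice 1 to 5, the smallest SD of the 25 tested genes at 0.06. Cx3cr1 had 6.62, 6.59, 6.91, 6.83 and 6.86, with an SD of 0.15. Both exceeded the floor in every mouse, Cx3cl1 by 0.23 to 0.69.

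Cxcr1 had the widest spread among receptor genes. It encodes a receptor of neutrophil-attracting CXC ligands and had levels of 8.11, 9.57, 8.19, 9.17 and 9.25 in mice 1 to 5. Mice 1 and 3 were low and mice 2, 4 and 5 high, with 0.98 between the 2 sets of mice and an SD of 0.66 (2.75-fold span). It exceeded at least 99.8% of olfactory receptor probe sets on each array. Its variance did not pass (limma adjusted p = 0.0688, unadjusted p = 0.000277), and passed without mouse 5 (SD 0.72, limma adjusted p = 0.0146). Cxcr2, its chromosomal neighbour and the gene of the related receptor, lay under the floor in all mice, with levels of 4.53, 4.84, 4.39, 4.53 and 4.61. Of 13 measured neutrophil markers, 2 exceeded the floor in all mice (S100a9, 5.98 to 6.25, and Elane, 6.07 to 6.35). Another 8 lay under it in all mice, S100a8 and Ly6g among them, and the mean level of that list lay between 5.26 and 5.36. That list deviated by -0.033, -0.042, -0.024, 0.094 and 0.005 in mice 1 to 5 (4 tested genes). The part of neutrophil number in the Cxcr1 values was not tested.

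Of the other receptor genes above the floor, Ccr7, which encodes the receptor of CCL19 and CCL21, had levels of 6.71, 6.57, 6.71, 6.95 and 6.57 in mice 1 to 5. Cxcr3 had 6.44, 6.34, 6.43, 6.54 and 6.36, within 0.42 to 0.75 of the floor. Neither passed the variance test (limma adjusted p = 0.992 for both). The 12 receptor genes under the floor in all mice were Ccr1, Ccr1l1, Ccr2, Ccr3, Ccr4, Ccr6, Ccr8, Ccr9, Cxcr2, Cxcr4, Cxcr5 and Cxcr6. Their means ran from 4.07 (Ccr1) to 5.59 (Ccr6, which came within 0.04 of the floor). The run of neighbouring receptor genes Ccr1, Ccr1l1, Ccr3 and Ccr2 had 0 of 4 above the floor in any mouse.

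Ligand and receptor genes were also set side by side. Of 28 textbook ligand and receptor pairs among the 50 genes, 5 had both genes above the floor in all mice: Cx3cl1 with Cx3cr1, Ccl19 with Ccr7, and Cxcl9, Cxcl10 and Cxcl11 with Cxcr3. In 12 pairs the ligand gene lay above the floor throughout, and the receptor gene was under it in each mouse. These included Cxcl12 with Cxcr4, Cxcl13 with Cxcr5, Cxcl16 with Cxcr6, Ccl2 and Ccl7 with Ccr2, and Ccl3, Ccl5, Ccl6 and Ccl9 with Ccr1. In 7 pairs both were under the floor in all mice. The receptor was thus under the floor in 70.6% of the 17 pairs with a ligand above it in all mice, the same share as among all 17 receptor genes, and in 87.5% of the 8 pairs with a ligand under it. The pairs share receptors and are not independent of each other. Each ligand entered with a single receptor. Cxcr1, above the floor in all mice, was in no pair, and Cxcl1, Cxcl2, Cxcl3 and Cxcl5 were paired with Cxcr2 only. The counts depend on this choice of pairs.

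Markers of the cells that carry these receptors were measured on the same arrays. Of 19 T and NK cell markers, 3 exceeded the floor in all mice (Cd3e, Thy1 and Prf1) and 10 in none, Cd3d and Cd3g among them. Of 7 monocyte markers, Lyz2 (9.71 to 10.57), Cd14 (6.84 to 7.47) and Plac8 (6.59 to 6.91) did, and the other 4 in none, F13a1 and Chil3 among them. Of 10 dendritic cell markers 5 did, Clec9a among them, and 3 in none, Xcr1 among them, while Flt3 did in 3 mice. All 14 sinusoidal endothelial markers, Stab1, Stab2 and Lyve1 among them, and 15 of 16 Kupffer cell and macrophage markers exceeded the floor in all mice. The mean level of the T and NK cell list lay between 5.37 and 5.51, of the monocyte list between 6.18 and 6.44, and of the dendritic cell list between 5.92 and 6.04. The part of cell number in the low receptor values was not tested.

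The 25 genes tested for spread had a median SD of 0.155, against 0.117 for all 13019 genes tested. The ratio of the variance to that expected at the same level had a median of 1.52, against 0.933, and exceeded 1 in 16 of the 25 genes, against 47.0% of all genes. Unadjusted p values under 0.05 were found in 6 of the 25 (Cxcl13, Cxcr1, Cxcl10, Ccl3, Ccl9 and Ccl2), against 6.43% of all genes. The 25 are those whose mean exceeded the mean floor, a filter that a gene raised in 1 mouse can pass through that mouse, so the counts are a description.

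**Figure D3:**
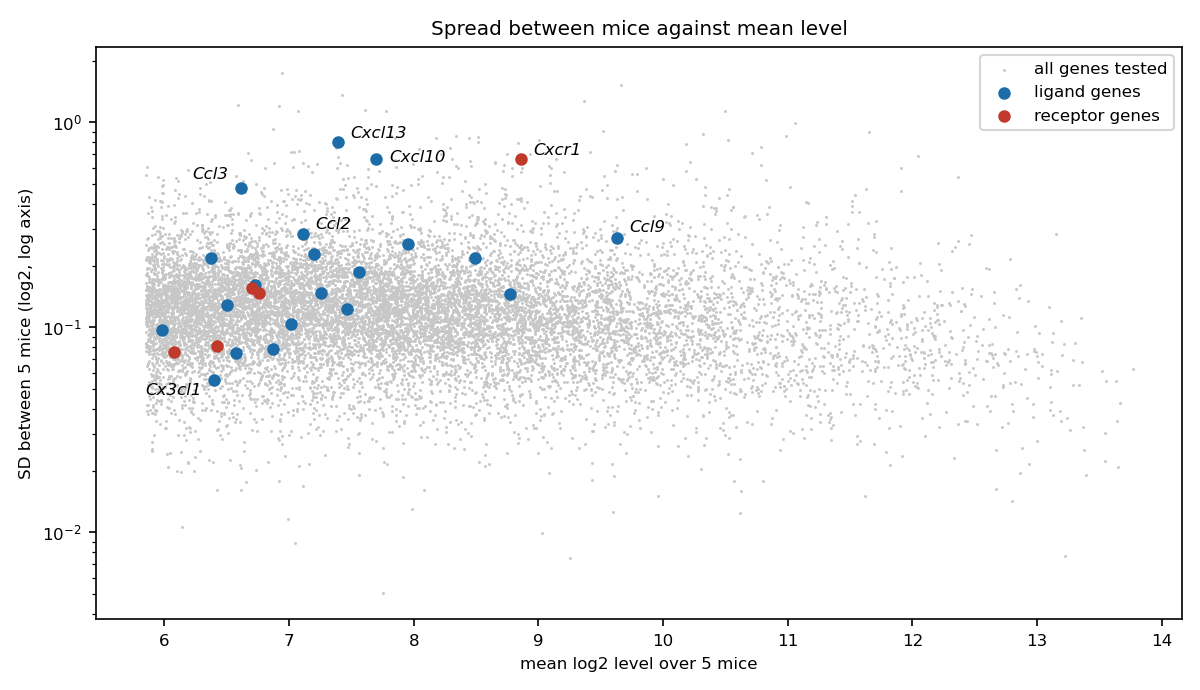
SD between the 5 mice (log axis) against the mean log2 level for all 13019 genes tested (grey) and the 25 chemokine ligand (blue) and receptor (red) genes. Cxcl13, Cxcl10 and Cxcr1 lie near the upper edge of the cloud at their level with SDs of 0.80, 0.66 and 0.66, and Cx3cl1 near its lower part with 0.06.

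No mouse was highest for most of the genes. Of the 25, 7 were highest in mouse 5 (Ccl2, Ccl3, Ccl5, Ccl6, Ccl7, Cx3cl1 and Cxcl10) and 7 in mouse 3 (Ccl9, Ccl11, Ccl24, Ccr10, Cx3cr1, Cxcl1 and Cxcl9). Mouse 1 was highest for 4 (Ccl19, Cxcl11, Cxcl13 and Cxcl16), mouse 4 for 4 (Ccr7, Cxcl12, Cxcl17 and Cxcr3) and mouse 2 for 3 (Ccl25, Cxcl14 and Cxcr1). Over all genes tested, 24.1%, 25.8%, 22.6%, 8.16% and 19.4% were highest in mice 1 to 5. Mouse 2 was lowest for 10 of the 25, against 11.2% of all genes tested. The median deviation of the 25 genes from their 5-mouse means was 0.0056, -0.0972, 0.0032, -0.0646 and -0.0198 in mice 1 to 5, beside 0.0298, 0.0318, 0.0062, -0.0636 and -0.0062 over all genes tested.

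**Figure D4:**
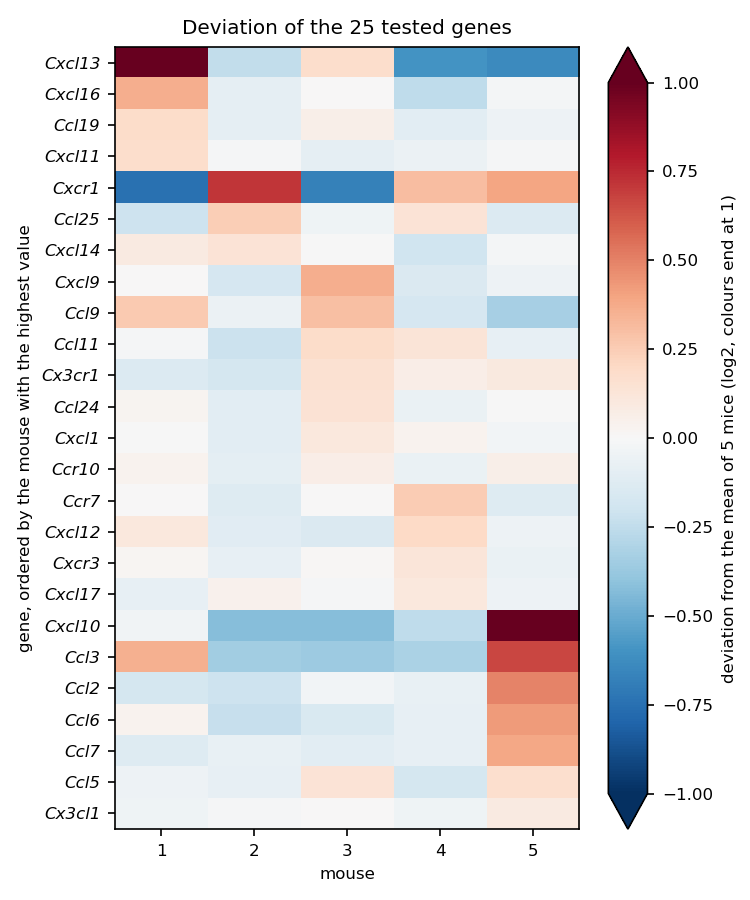
Deviation of each of the 25 tested genes from its 5-mouse mean (log2, red above and blue below, colours end at 1), ordered by the mouse with the highest value. The strongest colours belong to Cxcl13 in mouse 1, Cxcl10 and Ccl3 in mouse 5, and Cxcr1, which is high in mice 2, 4 and 5 and low in mice 1 and 3.

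Among 13 tested genes of leukocyte adhesion, 7 were highest in mouse 1 and 4 in mouse 5, with mean deviations of 0.091 and 0.145. Those highest in mouse 1 included the integrin genes Itgal and Itgb2 and the selectin ligand gene Selplg. The largest deviation in mouse 5 was that of Jam2, a junctional adhesion molecule gene (9.01, others 8.08 to 8.39). Vcam1, which encodes an endothelial adhesion molecule, had levels of 7.47, 7.29, 7.36, 7.46 and 8.04 in mice 1 to 5, and Icam1 had 7.65, 7.42, 7.64, 7.55 and 7.90. Both were highest in mouse 5, and neither they nor Jam2 passed (limma adjusted p = 0.708, 0.992 and 0.44). Tnf, the cytokine gene that induces many chemokines, was highest in mouse 5 too (6.07) but exceeded the floor in 2 mice only. In the list of inflammatory cytokines and interferon gamma, 4 of 10 tested genes were highest in mouse 1 and 3 in mouse 5. The mean deviations of that list were 0.085 in mouse 1 and 0.073 in mouse 5. Kupffer cell and macrophage markers deviated by 0.061 in mouse 5, against 0.293 in mouse 1. Monocyte markers (3 tested genes) deviated by 0.103 in mouse 5, against 0.197 in mouse 1. Of these, Cd14 was highest in mouse 5, while Lyz2 and Plac8 were highest in mouse 1. Whether cell mix had a part in the mouse 5 values was not tested.

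Among genes that act around the ligands and receptors no member passed, against 0.284% of all genes tested. At that share, lists of this size would mostly hold none. Unadjusted p values under 0.05 in limma were found for 6.43% of all genes tested, and 58.7% of all genes exceeded the floor in all mice. Among 13 atypical receptors and other chemokine genes, 6 exceeded the floor in all mice and 0 of 9 tested passed (1 with an unadjusted p under 0.05). These included Ackr2, a scavenger of CC chemokines (7.15 to 7.51), and Rarres2, the gene of the attractant chemerin, which liver secretes (12.04 to 12.35). The scavenger gene of CXCL12, Ackr3, lay under the floor in all mice (5.25 to 5.51). Receptor coupling genes exceeded the floor in 19 of 26 cases, with 0 of 24 tested passing in limma (2 unadjusted). For the NF-kB pathway these counts were 17 of 21 and 0 of 19 (0 unadjusted), for inflammatory cytokines 8 of 21 and 0 of 10 (0 unadjusted), and for adhesion molecules 13 of 17 and 0 of 13 (3 unadjusted). Of the receptor coupling genes 15 of 24 were highest in mouse 1, against 24.1% of all genes tested. Il6, Il10, Csf2 and Lta lay under the floor in all mice, and Il1a exceeded it in all (7.43 to 7.70).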

How the data were processed

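The authors deposited 1 log2 value per probe set and array; the submitters' processing notes name RMA and Affymetrix Expression Console 1.2, without settings. RMA compresses differences near background. Of 35556 probe sets, 21789 had exactly 1 symbol in the platform annotation. All 50 genes matched the RefSeq gene table (GRCm38.p6), used for names and gene order, and 36 matched its promoter table. The floor was the 95th percentile of olfactory receptor probe sets on each array. For spread, limma 3.58.1 in R 4.3.3 fitted each mean alone, and the remaining variance on 4 degrees of freedom was tested (upper-tail F) against the level-dependent expected variance (fitFDistRobustly; prior degrees of freedom 6.17) over 14239 probe sets with means above 5.85. The test was tried on simulated data. Arrays hold no counts, so their number limits the precision. No technical replicates were measured, so spread between mice includes technical spread. Genes named were all those above the floor, those that passed, and first markers of the cell type lists discussed; other markers and all pathway genes were chosen after their values were seen. The members, the lists and the 16 alternatives (the floor's effect on the variance test was added after seeing the data) were chosen with earlier results of these data known, and the motifs and printed promoters after the values were seen. Python 3.11.15 with pandas 2.3.3 was used.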

Additional observations from a re-analysis of the deposited data

Results flagged for a closer look

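In 3 of 28 genes with a value above the floor, a single mouse stood apart from the other 4 by more than 0.71 of the whole range (Dixon's 95% limit for 5 samples), where chance flags about 1 in 20 groups. That is 10.7%, against 5.73% of the 13861 genes with a value above the floor on these arrays. All 3 concerned the highest value, in mouse 5. Ccl2 was 7.601 there, against 6.898 to 7.081 in the others. Ccl7 was 6.764, against 6.247 to 6.299. Cxcl10 was 8.842, against 7.272 to 7.668. Ccl2 and Ccl7 are neighbouring genes, and the 3 values come from 1 array.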

How the results depend on the processing

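The number of genes above the floor on all arrays was 23, and 10 with the floor at the 99th percentile. With the floor at the 90th percentile it was 28 (56%, against 65.9% of all genes). It was 30 when each of the 7 probe sets of several symbols was counted as a gene of its own. Some of these 7 held identical values, so 30 is not a number of distinct genes. When 1 mouse was left out the number lay between 23 and 25. The number above the floor on no array was 22. It was 18 with the floor at the 90th percentile and 31 with the floor at the 99th. Over all 19938 genes, 6077 were above the floor on no array, and 4742 and 9651 with those other floors. Over all 13019 genes tested, 37 passed the variance test in limma, and 131 with arrays centred on their median. Of the chemokine and receptor genes, the number that passed in limma was 1 (6 at an unadjusted p under 0.05). It was 3 with arrays centred on their median (Cxcl13, Cxcr1 and Cxcl10; 6 unadjusted). It was 0 with the mean over probe sets (6 unadjusted), without a filter (6), with only probe sets above the floor on every array (6), with the filter at the 99th percentile floor (5; added after seeing the data), without the trend (6), without the robust step (5) and with quantile normalization (5). When 1 mouse was left out it lay between 0 (without mouse 2, 3 or 4, with 5, 7 and 7 unadjusted) and 2 (Cxcl13 and Cxcr1, without mouse 5); without mouse 1 the gene was Cxcl10. It was 1, Cxcl13, with the filter at the 90th percentile floor (limma adjusted p = 0.0431), with vomeronasal receptors added to the floor (0.0469) and with probe sets of several symbols (0.0491). Over all genes tested, the number that passed was 31 of 12926 with the mean over probe sets and 21 of 19938 without a filter. Filtering on every array gave 29 of 11707, and the 99th percentile filter 18 of 9553. It was 10 of 13019 without the trend, 4 of 13019 without the robust step and 21 of 13001 with quantile normalization. Without mouse 2, 3 or 4 it was 16 of 12927, 16 of 13011 and 0 of 13289. Without mouse 1 or 5 it was 49 of 12870 and 47 of 12978. The median deviation of the chemokine and receptor genes in mouse 4 was -0.113 with centred arrays and 0.0099 without a filter, which then includes 25 dimmer genes. Of 448 single-gene results under alternatives, 433 kept their side of the threshold, 50 of them untested; all 15 others concerned Cxcl13, Cxcl10 and Cxcr1. No paired analysis was possible because there is 1 group. Arrays near the floor resolve little: 22 genes gave only values in the background range.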
